A study of Mus musculus with 26 samples.

Results

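The MAP kinase phosphatase genes of mouse brown adipose tissue (BAT) were followed across cold exposure and loss of Afadin. The family was taken by name and holds 10 genes, Dusp1, Dusp2, Dusp4, Dusp5, Dusp6, Dusp7, Dusp8, Dusp9, Dusp10 and Dusp16, out of 50686 genes listed. All 10 were listed, and 9 of them were among the 17286 genes with enough counts to be tested. Dusp9 had too few counts and is described by its counts. RNA-seq had been carried out on supraclavicular BAT from 26 male C57BL/6J mice, which the study's methods place at 12 to 16 weeks of age. Mice with a floxed Afadin gene (Afdn, formerly Mllt4) deleted by Adiponectin-Cre were compared with control littermates. This Cre is active in white as well as brown adipocytes, so the deletion was directed to adipocytes of all fat depots and not to the other cells of the tissue. All mice had spent 2 weeks at thermoneutrality (30 °C in the sample labels, 29 °C in the methods), and some were then moved to 5 °C for 6 h. The groups are called by their labels, WT for the controls and KO for the Afadin-deleted mice, with 7 WT and 7 KO mice at 30 °C and 5 WT and 7 KO mice at 5 °C.

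Total counts ran from 12705969 to 25732258 per mouse (median 17237377). Mitochondrial transcripts took 14.3% of the counts in WT mouse 7 at 30 °C and between 19.2% and 40.5% in the other 25 mice. The 10 brown adipocyte markers were present in every group, with summed levels of 8126 to 10070 CPM (read count scaled to library size, here with TMM factors) at 30 °C and 26140 to 32780 CPM at 5 °C. They did not move together, since in the cold 4 rose and 4 fell in WT, and 4 rose and 5 fell in KO. Ucp1 had a median of 1004 CPM in WT at 30 °C and 15960 CPM in WT at 5 °C. The 8 skeletal muscle markers varied widely between the mice of every group, from 0.987 to 7403 CPM, and WT mouse 7 was highest at 30 °C with 5354 CPM. The transcript of the targeted gene did not separate the genotypes at 30 °C. Afdn was at 196 ± 21.0 CPM (SD, n = 7) in WT and 194.7 ± 27.4 CPM (SD, n = 7) in mice labelled KO, which is -0.01 on the log2 scale (SE 0.08, adjusted p = 0.992). At 5 °C it was at 73.5 ± 4.28 CPM (SD, n = 5) in WT and 58.5 ± 4.15 CPM (SD, n = 7) in mice labelled KO, with all KO mice below all WT mice, a difference of -0.33 on the log2 scale (SE 0.09, adjusted p = 0.116). Every genotype contrast given here therefore compares mice by their label. These values are RNA counts per gene. At the protein level, the study reported a smaller cold rise of Afadin in the BAT of its knockout mice. The study also measured Afadin protein in both genotypes at thermoneutrality, and the transcript by quantitative PCR. Its text does not put the outcome of those genotype comparisons into words.

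MAP kinases are switched on when an upstream kinase phosphorylates a threonine and a tyrosine in their activation loop, and the MAP kinase phosphatases remove both phosphates. The family falls into 3 classes. Dusp1, Dusp2, Dusp4 and Dusp5 encode nuclear enzymes whose genes are classical early targets of growth factor and stress signals. Dusp6, Dusp7 and Dusp9 encode enzymes that act mainly in the cytoplasm and prefer ERK, the MAP kinase of the growth factor pathway. Dusp8, Dusp10 and Dusp16 encode enzymes that prefer the stress-activated kinases JNK and p38. In brown adipocytes, noradrenaline released in the cold raises cAMP, and the p38 and ERK pathways are among those that act downstream of it. Transcription of many family members is itself raised by the kinases they silence, which makes them feedback inhibitors.

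The DNA just before the RefSeq start sites of the members was searched for motifs. Stretches with cAMP response elements, their cores or CArG boxes are shown for 4 members. RefSeq windows of 300 bases (250 before to 50 after the start, build GRCm38.p6) were matched for 8 of the 10 members, all but Dusp4 and Dusp9. Both strands were searched. The cAMP response element TGACGTCA was in 2 of the 8 windows, those of Dusp1 and Dusp8, and in 1.79% of all 32851 windows. Its core TGACG, which also lies inside the longer motif, was in 5 of the 8, those of Dusp1, Dusp2, Dusp5, Dusp8 and Dusp16, and in 20.8% of all windows. The CArG box bound by serum response factor was in the Dusp5 window alone among the 8 and in 1.63% of all windows. The EGR motif GCGNGGGCG was in the windows of Dusp2 and Dusp16 and in 5.55% of all windows, and the AP-1 motif TGANTCA was in none of the 8 and in 7.81% of all windows. The windows of Dusp6, Dusp7 and Dusp10 held none of the motifs searched, and these genes separated the temperatures without overlap (below). Dusp8 and Dusp16 held motifs and also separated the temperatures without overlap. Dusp1, Dusp2 and Dusp5 held motifs, did not pass the test for cold in WT mice and rose in KO mice. The relation of the motifs to the cold response was not tested. The stretches below are written 5′ to 3′ on the strand of the gene, with the cAMP response elements, their cores on either strand and the CArG boxes in capitals. They lie at chr17:26508593-26508672 (minus strand) for Dusp1, chr7:142095325-142095404 (minus strand) for Dusp8, chr19:53529050-53529109 (plus strand) for Dusp5 and chr6:134792669-134792718 (minus strand) for Dusp16.
Dusp1: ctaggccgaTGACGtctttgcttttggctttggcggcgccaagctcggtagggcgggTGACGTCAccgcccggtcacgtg
Dusp8: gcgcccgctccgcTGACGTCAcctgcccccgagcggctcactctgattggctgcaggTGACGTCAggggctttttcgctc
Dusp5: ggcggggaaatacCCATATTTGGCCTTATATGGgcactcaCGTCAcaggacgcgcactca
Dusp16: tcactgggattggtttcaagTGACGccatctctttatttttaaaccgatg
The Dusp8 stretch holds the full element at 2 places, ending 100 and 56 bases before the start, and the Dusp1 stretch holds it once, ending 136 bases before the start. In the Dusp5 stretch the first capitals are 2 CArG boxes side by side, followed by a core on the opposite strand. The EGR matches and the Dusp2 core lie outside the stretches shown. The Dusp1 and Dusp8 stretches lie before the RefSeq start but inside the longer genes of the GENCODE annotation. These matches describe the letters in the windows and do not show that a factor was bound.

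In control mice, cold changed 6 of the 9 tested members and moved them in opposite directions. Dusp6, Dusp16, Dusp8 and Dusp10 rose and Dusp7 and Dusp4 fell, while Dusp1, Dusp2 and Dusp5 did not pass the test. The same contrast changed 65.0% of all genes tested, 31.6% upward and 33.4% downward, so a share of 6 in 9 is near the background and what the members show lies in their size and direction. The median log2 fold change was 0.82 over the 9 members and -0.01 over all genes tested. The p-values measure the spread between mice. In whole tissue, fewer cells of a type and less RNA per cell cannot be told apart.

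**Figure D1:**
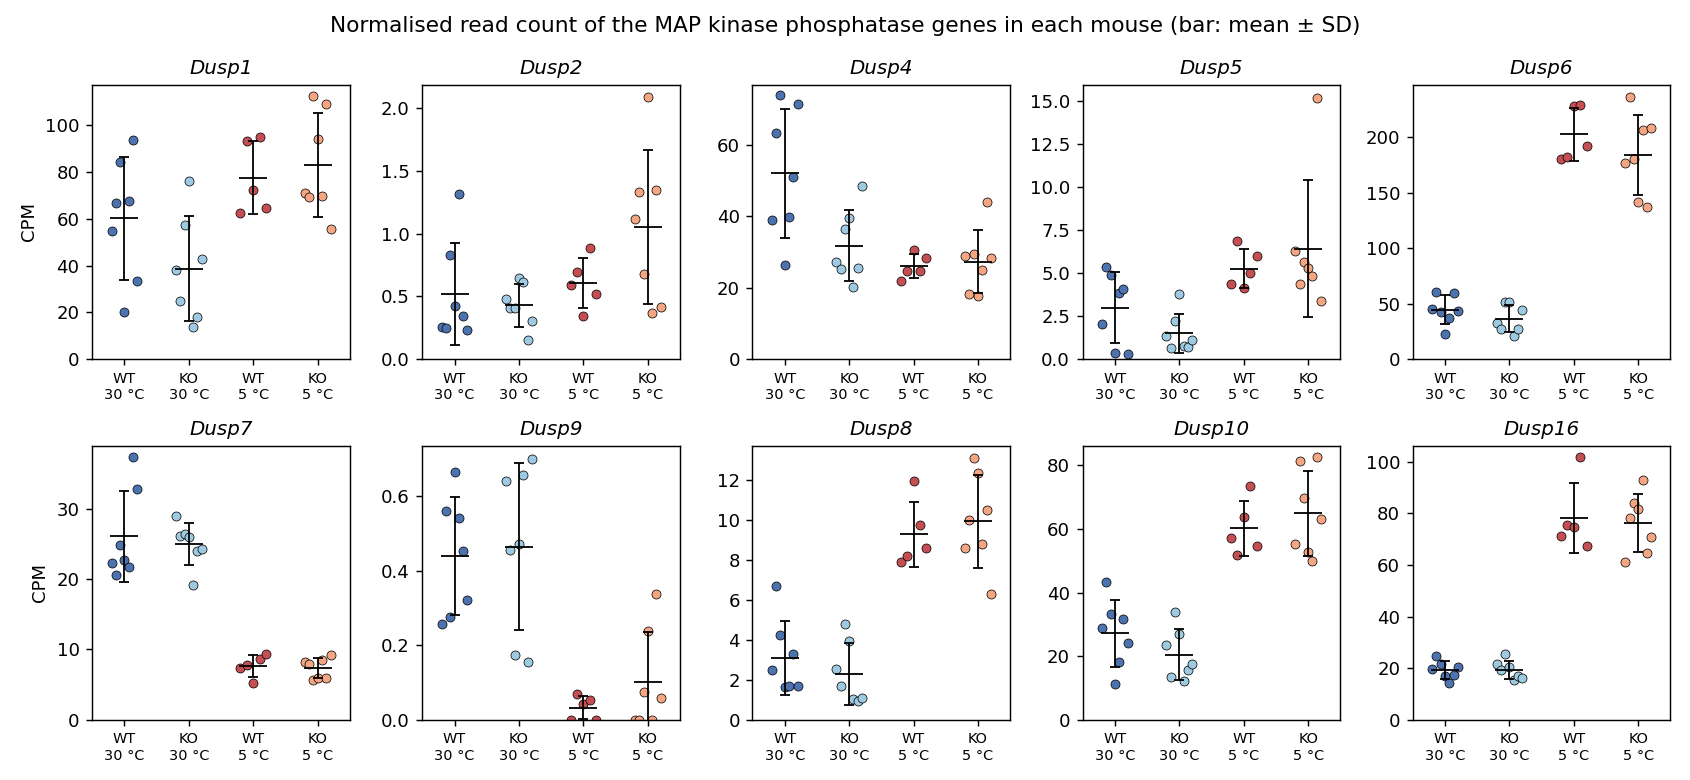
Normalised read count (CPM, linear axis starting at 0) of each of the 10 genes, with 1 point per mouse for WT and KO mice at 30 °C and 5 °C and bars for the mean ± SD (the lower bars of Dusp9 are cut at 0). Dusp6, Dusp8, Dusp10 and Dusp16 lie higher at 5 °C without overlap in both genotypes, Dusp7 lies lower without overlap, and Dusp1, Dusp2, Dusp4 and Dusp5 overlap.

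Among the cytoplasmic ERK phosphatases, Dusp6 (chromosome 10, 99263231 to 99267489, plus strand, GRCm38) showed the largest rise. In WT mice at 30 °C it lay at 22.8 CPM in the lowest, 43.0 CPM in the median and 60.4 CPM in the highest mouse. At 5 °C the 5 WT mice had 180.7, 183, 228, 229.5 and 192 CPM. The lowest cold mouse was thus well above the highest mouse at thermoneutrality, and the log2 fold change was 2.19 (SE 0.21, adjusted p = 8.49e-10). In mice labelled KO the range was 21.0 to 51.3 CPM (median 32.1) at 30 °C and 137.4 to 236.5 CPM (median 180.7) at 5 °C. These groups were also apart, and the log2 fold change was 2.34 (SE 0.20, adjusted p = 8.57e-11). The cold responses of the genotypes differed by 0.15 (SE 0.29, adjusted p = 0.844), with 0.00 to 0.16 under the other settings tried and 0.05 to 0.26 with 1 mouse left out.

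Dusp7, which encodes the closest relative of the Dusp6 enzyme in the same class, went the other way. In WT mice at 30 °C it ranged from 20.6 to 37.3 CPM (median 22.7), and at 5 °C the 5 mice had 7.30, 7.80, 5.28, 8.68 and 9.28 CPM. All cold mice were below all warm mice, with a log2 change of -1.77 (SE 0.17, adjusted p = 4.77e-10). Among mice labelled KO, Dusp7 ranged from 19.2 to 28.96 CPM (median 26.0) at 30 °C and from 5.61 to 9.20 CPM (median 7.98) at 5 °C, again without overlap, at -1.76 (SE 0.15, adjusted p = 4.68e-11). The cold response of Dusp7 differed between genotypes by 0.01 (SE 0.22, adjusted p = 0.996).

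Dusp9, the X-linked member of the class, was close to absent. Its raw counts were 4 to 11 in WT and 3 to 14 in KO mice at 30 °C. After cold they were 0 to 1 in WT mice and 0 to 6 in KO mice, with 2 of 5 WT and 3 of 7 KO mice at 0. Pooled over mice, the counts fell from 51 to 3 in WT, a level 13.1 times higher at 30 °C than at 5 °C (95% interval 4.23 to 65.5, exact and for counting error only). In KO they fell from 63 to 12, a ratio of 4.41 (95% interval 2.36 to 8.98). KO mouse 27 held 6 of those 12 counts, and without it, a setting chosen after seeing the data, the ratio was 7.42 (95% interval 3.22 to 21.0). Leaving out 1 cold mouse at a time gave 10.6 to 16.5 in WT and 3.76 to 7.42 in KO. The WT groups did not overlap (exact two-sided permutation test on log2 CPM, p = 0.00126, the smallest that 5 mice against 7 allow) and the KO groups did (exact two-sided permutation test, p = 0.00583). Dusp9 was therefore lower after cold in each genotype, at a depth of a few reads per library.

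All 3 phosphatases of the JNK and p38 class were higher after cold. Dusp16 had a WT range of 14.3 to 24.9 CPM (median 19.8) at 30 °C, and the 5 WT mice at 5 °C had 71.2, 75.5, 74.5, 101.8 and 67.4 CPM. No warm mouse reached any cold mouse, and the log2 fold change was 2.01 (SE 0.13, adjusted p = 6.34e-13). For Dusp16 in KO mice the values went from 15.6 to 25.5 CPM (median 19.3) to 61.0 to 92.8 CPM (median 78.1), or 1.98 on the log2 scale (SE 0.13, adjusted p = 2.12e-13). The difference of these responses was -0.03 (SE 0.18, adjusted p = 0.957). Dusp16 overlaps an antisense gene, Gm36328, whose 1 to 29 counts per mouse are few beside the 185 to 1958 of Dusp16.

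Dusp8 was scarcer. Its WT range at 30 °C was 1.63 to 6.68 CPM (median 2.51), and at 5 °C the 5 mice had 7.89, 8.22, 11.9, 9.77 and 8.58 CPM. The groups were apart, although the highest warm mouse came close to the lowest cold one, and the log2 fold change was 1.58 (SE 0.35, adjusted p = 0.000279). Dusp8 in KO mice moved from 0.93 to 4.77 CPM (median 1.67) at 30 °C to 6.28 to 13.1 CPM (median 9.98) at 5 °C, at 2.13 (SE 0.33, adjusted p = 3.01e-06). Of the 3 full cAMP response elements printed above, 2 lie before the RefSeq start of Dusp8. They lie inside the longer gene of the annotation (chromosome 7, 142079490 to 142095843, minus strand). Their part in the cold response was not tested.

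Dusp10, a negative regulator of JNK and p38, ranged from 11.3 to 43.3 CPM (median 28.7) in WT mice at 30 °C. At 5 °C the 5 WT mice had 57.2, 51.8, 63.7, 73.5 and 54.8 CPM. All lay above the warm mice, and the log2 change was 1.15 (SE 0.25, adjusted p = 0.000196). Dusp10 in KO mice went from 12.1 to 33.9 CPM (median 17.7) to 49.9 to 82.6 CPM (median 63.0), at 1.66 (SE 0.23, adjusted p = 4.84e-07). The groups again did not overlap.

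Thus 5 of the 9 tested members separated the temperatures without overlap in WT mice and 5 did so in KO mice, and they were the same genes, Dusp6, Dusp8, Dusp10 and Dusp16 upward and Dusp7 downward. Of all genes tested, 46.4% were apart in WT (23.5% higher and 22.9% lower) and 40.4% in KO (21.1% higher and 19.3% lower).

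The nuclear early-response members gave a less uniform picture. Dusp1, which acts on p38, JNK and ERK, was among the most abundant members at both temperatures. It ranged from 20.3 to 93.7 CPM (median 66.8) in WT mice at 30 °C, with mouse 4 and mouse 7 at 20.3 and 33.2 CPM and the other 5 at 54.8 CPM or more. The 5 WT mice at 5 °C had 62.3, 93.3, 72.2, 95.2 and 64.8 CPM. These groups overlapped widely and the log2 fold change was 0.37 (SE 0.34, adjusted p = 0.352). All 5 cold WT mice lay above the mean of the warm ones and 1 lay above the highest. Dusp1 in KO mice ranged from 13.8 to 76.1 CPM (median 37.98) at 30 °C and from 55.5 to 112.3 CPM (median 71.0) at 5 °C. There it rose by 1.10 on the log2 scale (SE 0.32, adjusted p = 0.00322), with all 7 cold mice above the mean of the warm ones and 3 above the highest. A long transcript of Dusp1 in the annotation overlaps Ergic1 on the other strand, at 816 to 2312 counts per mouse. Whether the authors' counting used strand is not given in the sources used here, so reads of the overlap cannot be told apart.

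Dusp5, a nuclear phosphatase specific for ERK, varied widely between mice at thermoneutrality. At 30 °C the WT mice ranged 16.7-fold, from 0.32 to 5.37 CPM (median 3.86), and the lowest 2 mice were again mouse 7 and mouse 4. The 5 WT mice at 5 °C had 4.33, 6.83, 4.12, 4.99 and 5.99 CPM. The groups overlapped and the log2 fold change of 0.82 (SE 0.50) did not pass the test (adjusted p = 0.151). With a score of skeletal muscle markers added to the model, a setting chosen after seeing the data, it was 1.12 (SE 0.44, adjusted p = 0.0276), while without WT mouse 7 it was 0.58 (adjusted p = 0.262). Dusp5 in KO mice ranged from 0.66 to 3.78 CPM (median 1.10) at 30 °C and from 3.35 to 15.2 CPM (median 5.30) at 5 °C. This was a rise of 2.11 (SE 0.48, adjusted p = 0.000385) and of 1.73 (SE 0.46, adjusted p = 0.00182) without KO mouse 27, the highest.

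Dusp4, the close homologue of Dusp1, was the one nuclear member that fell in WT mice. It ranged from 26.4 to 73.9 CPM (median 50.9) at 30 °C, and the 5 cold WT mice had 21.9, 24.7, 30.5, 24.7 and 28.2 CPM. All 5 lay below the mean of the warm mice and 3 lay below the lowest, and the log2 fold change was -1.002 (SE 0.24, adjusted p = 0.000821). Dusp4 in KO mice covered 20.2 to 48.4 CPM (median 27.0) at 30 °C and 17.6 to 44.1 CPM (median 28.2) at 5 °C. These were nearly the same range, with a log2 change of -0.22 (SE 0.22, adjusted p = 0.388).

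Dusp2, best known from activated leukocytes, was present at a few reads. WT mice at 30 °C ranged from 0.23 to 1.31 CPM (median 0.34, 4 to 17 counts), and the 5 WT mice at 5 °C had 0.59, 0.70, 0.34, 0.88 and 0.52 CPM. The groups overlapped fully, with a log2 change of 0.25 (SE 0.45, adjusted p = 0.639). In mice labelled KO, Dusp2 ranged from 0.16 to 0.65 CPM (median 0.41) at 30 °C and from 0.37 to 2.08 CPM (median 1.12) at 5 °C, a rise of 1.29 (SE 0.40, adjusted p = 0.00571) that left 2 of 7 cold mice within the warm range.

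Leukocyte markers moved over the same mice. The 8 lymphocyte markers summed to 4.13 to 10.1 CPM in WT and 4.31 to 8.08 CPM in KO mice at 30 °C. At 5 °C they summed to 1.19 to 2.36 CPM in WT and 1.35 to 20.6 CPM in KO mice, the highest being KO mouse 23. The 6 neutrophil markers summed to 0.35 to 3.81 CPM over both genotypes at 30 °C, to 3.09 to 7.80 CPM in WT at 5 °C and to 3.23 to 44.4 CPM in KO at 5 °C, the highest being KO mouse 27. Of these, Ly6g was at 0 in every mouse at 30 °C. The 6 macrophage markers summed to 134 to 212 CPM in WT and 132 to 175 CPM in KO mice at 30 °C, and to 180.3 to 221.5 CPM in WT and 199 to 264 CPM in KO mice at 5 °C. Taken singly they went both ways in the cold, with 2 higher and 2 lower in WT and 4 higher and 2 lower in KO. The cold rise of Dusp2 in KO was 1.21 without KO mouse 23 (adjusted p = 0.012), 1.22 without KO mouse 27 (adjusted p = 0.0123) and 1.02 without KO mouse 25 (adjusted p = 0.0253), which had the most Dusp2. The part of leukocytes in these values was not tested.

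In mice labelled KO, cold therefore changed 8 of the 9 tested members. Dusp1, Dusp2, Dusp5, Dusp6, Dusp8, Dusp10 and Dusp16 rose, Dusp7 fell and Dusp4 did not pass. The background in this contrast was 68.6% of all genes tested, 33.7% upward and 34.9% downward, and the median log2 fold change was 1.66 over the members and -0.03 over all genes.

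Between genotypes, 0 of the 9 tested members were called at either temperature by edgeR, by DESeq2 or under any other setting tried. At 30 °C all 9 log2 fold changes were negative, from -0.997 (Dusp5) to -0.0048 (Dusp16), with a median of -0.41 beside -0.02 over all genes tested. Of these, 1 had an unadjusted p below 0.05, against 7.65% of all genes, and 0.081% of all genes were called. The sign of Dusp7 and Dusp16 turned under some settings and that of Dusp2 when 1 mouse was left out, so the negative sign held under all settings tried for the other 6 members. The 9 are not independent, since 14 of their 36 pairs were correlated between mice.

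Dusp4 was the member with the unadjusted p below 0.05. All 7 mice labelled KO at 30 °C lay below the mean of the WT mice and 3 lay below the lowest of them, with a log2 change of -0.72 (SE 0.22, unadjusted p = 0.00286, adjusted p = 0.343). An exact two-sided permutation test of Dusp4, not adjusted over the members, gave p = 0.0239, and the groups overlapped. Dusp4 was singled out by its p-value in these same mice, so the exact test is not independent support. The same exact test gave p = 0.143 (Dusp1) to p = 0.995 (Dusp9) for the other members. For Dusp5 the log2 fold change was -0.997 (SE 0.49, adjusted p = 0.653), for Dusp1 -0.64 (SE 0.31, adjusted p = 0.653), for Dusp8 -0.46 (SE 0.34, adjusted p = 0.824), for Dusp10 -0.41 (SE 0.23, adjusted p = 0.711) and for Dusp6 -0.29 (SE 0.19, adjusted p = 0.785). None of the members had non-overlapping genotypes at 30 °C, and 0.249% of all genes did.

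Skeletal muscle markers and the mitochondrial share also differed over these mice. The 8 muscle markers summed to 6.72 to 5354 CPM (median 61.2) in WT and 4.60 to 1476 CPM (median 782.6) in KO mice at 30 °C, with 0 of the 8 called. WT mice 4 and 7, with the highest sums of their group (1463 and 5354 CPM), had its lowest Dusp1 and Dusp5, and KO mice 10 and 11, with the lowest sums of theirs (4.60 and 8.14 CPM), had its highest. WT mouse 3 did not follow this, with a muscle sum of 555.8 CPM but 84.4 CPM of Dusp1 and 4.87 CPM of Dusp5. At 5 °C, KO mouse 24 had a muscle sum of 3725 CPM and the highest Dusp1 of its group (112.3 CPM). The relation of the muscle sum to these members was not tested. With the muscle score in the model, the genotype differences at 30 °C were -0.63 for Dusp1, -0.94 for Dusp5 and -0.72 for Dusp4, and 0 members were called. Mitochondrial transcripts took 14.3% to 40.5% of the counts (median 37.2%) in WT and 26.2% to 38.5% (median 28.3%) in KO mice at 30 °C, and their part in these values was not tested.

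At 5 °C the genotypes were closer, with a median log2 fold change of 0.10 over the 9 members and 0.02 over all genes. The values ran from -0.14 (Dusp6, SE 0.21) to 0.80 (Dusp2, SE 0.42, adjusted p = 0.413), and no member had an unadjusted p below 0.05, against 13.4% of all genes. In this contrast 0.139% of all genes were called and 1.11% had groups that did not overlap, while no member did.

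Dusp1, Dusp2 and Dusp5 passed the test for cold in KO and not in WT mice, and Dusp4 in WT and not in KO mice, so a direct test was made of how far the cold responses of the genotypes differed. No member passed that test, against 1.16% of all genes. The cold response was higher in KO than in WT by 0.79 for Dusp4 (SE 0.33, adjusted p = 0.227), by 1.29 for Dusp5 (SE 0.69, adjusted p = 0.364), by 1.03 for Dusp2 (SE 0.61, adjusted p = 0.411) and by 0.73 for Dusp1 (SE 0.46, adjusted p = 0.454). These members were thus not shown to respond differently in the genotypes, and their standard errors leave room for differences as large as those measured. Dusp8 and Dusp10 gave 0.56 (SE 0.48) and 0.52 (SE 0.34). Only Dusp4 had an unadjusted p below 0.05 (0.0233), against 16.2% of all genes. Without WT mouse 7, these differences were 0.69 for Dusp4, 1.5 for Dusp5, 1.17 for Dusp2 and 0.83 for Dusp1, and 0 were called. Without KO mouse 27, which had the highest Dusp5, they were 0.63 for Dusp4, 0.92 for Dusp5, 0.96 for Dusp2 and 0.66 for Dusp1. Again 0 were called.

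**Figure D2:**
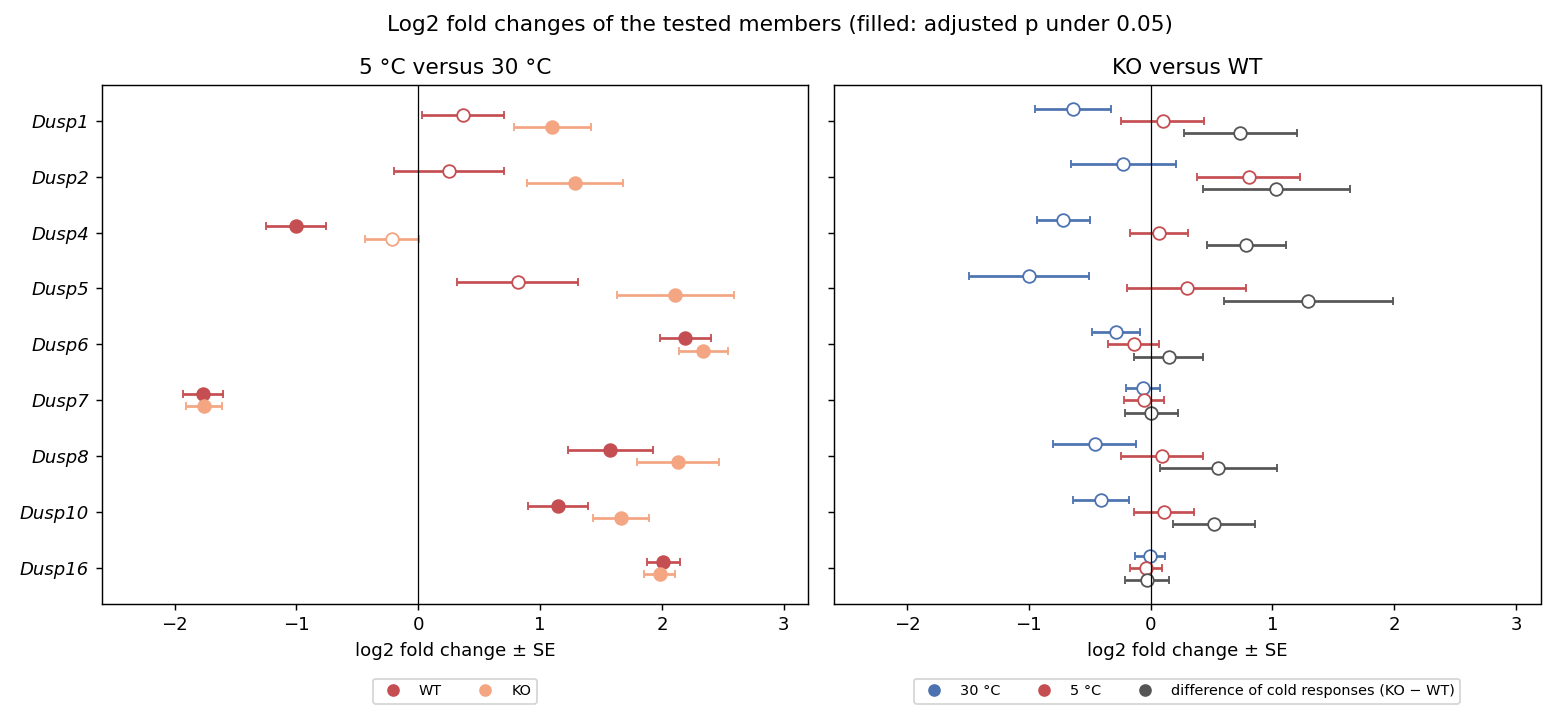
Log2 fold change ± SE of the 9 tested members, for 5 °C against 30 °C in each genotype (left) and for KO against WT at each temperature with the difference of the cold responses (right). Filled points had an adjusted p below 0.05 and are found in the cold panel alone, 6 in WT and 8 in KO.

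Levels of different genes were compared as CPM per kilobase of exon. In WT mice at 30 °C, Dusp4 (19.0 ± 6.599, SD, n = 7), Dusp1 (18.2 ± 7.95) and Dusp6 (14.2 ± 4.17) led and were not separated from each other by their ranges. Dusp10 (8.93 ± 3.45) and Dusp7 (7.76 ± 1.91) followed, also overlapping. A gap then set these 5 apart from Dusp16 (2.48 ± 0.44), Dusp5 (1.21 ± 0.84), Dusp8 (0.64 ± 0.38), Dusp2 (0.26 ± 0.20) and Dusp9 (0.16 ± 0.06), each of which overlapped its neighbour.

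Cold reordered this list. In WT mice at 5 °C, Dusp6 stood alone at the top with 64.7 ± 7.74 CPM per kilobase (SD, n = 5). Dusp1 (23.4 ± 4.73) and Dusp10 (19.8 ± 2.83) came next and overlapped, then Dusp16 (10.0 ± 1.75) and Dusp4 (9.49 ± 1.22), which overlapped each other. Dusp7 (2.28 ± 0.46), Dusp5 (2.12 ± 0.46) and Dusp8 (1.91 ± 0.34) formed a lower group, above Dusp2 (0.30 ± 0.10) and Dusp9 (0.01 ± 0.01). In KO mice at 5 °C, Dusp6 (58.8 ± 11.5, SD, n = 7) was likewise apart from all others, followed by Dusp1 (25.1 ± 6.67) and Dusp10 (21.3 ± 4.41).

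The summed level of the 10 genes rose from 72.8 ± 20.1 (SD, n = 7) to 134.0 ± 14.7 (SD, n = 5) CPM per kilobase in WT mice and from 53.0 ± 17.1 (SD, n = 7) to 132.3 ± 11.3 (SD, n = 7) in KO mice. The sums did not overlap between temperatures, with 36.6 to 92.4 in WT and 31.0 to 75.9 in KO mice at 30 °C, against 118.3 to 155.3 in WT and 115.5 to 146.6 in KO mice at 5 °C. Dusp6 alone accounted for 19.6 ± 2.41% of the sum in WT mice at 30 °C and 48.3 ± 2.29% at 5 °C, and for 21.9 ± 1.26% and 44.4 ± 7.65% in KO mice. The share of the nuclear class went from 52.3 ± 5.71% to 26.4 ± 2.77% in WT and from 44.2 ± 5.24% to 28.9 ± 7.00% in KO. Its own summed level went from 38.6 ± 12.8 to 35.3 ± 4.96 CPM per kilobase in WT and from 24.1 ± 10.1 to 38.1 ± 9.98 CPM per kilobase in KO, so the lower share stood beside a larger sum of the other classes. The cytoplasmic ERK class went from 31.2 ± 4.95% to 50.0 ± 2.15% in WT and from 37.3 ± 3.68% to 46.1 ± 7.90% in KO. The JNK and p38 class went from 16.5 ± 2.77% to 23.6 ± 1.44% in WT and from 18.5 ± 2.95% to 25.0 ± 1.71% in KO. These shares are a description of transcript levels, to which the fold changes above contribute.

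**Figure D3:**
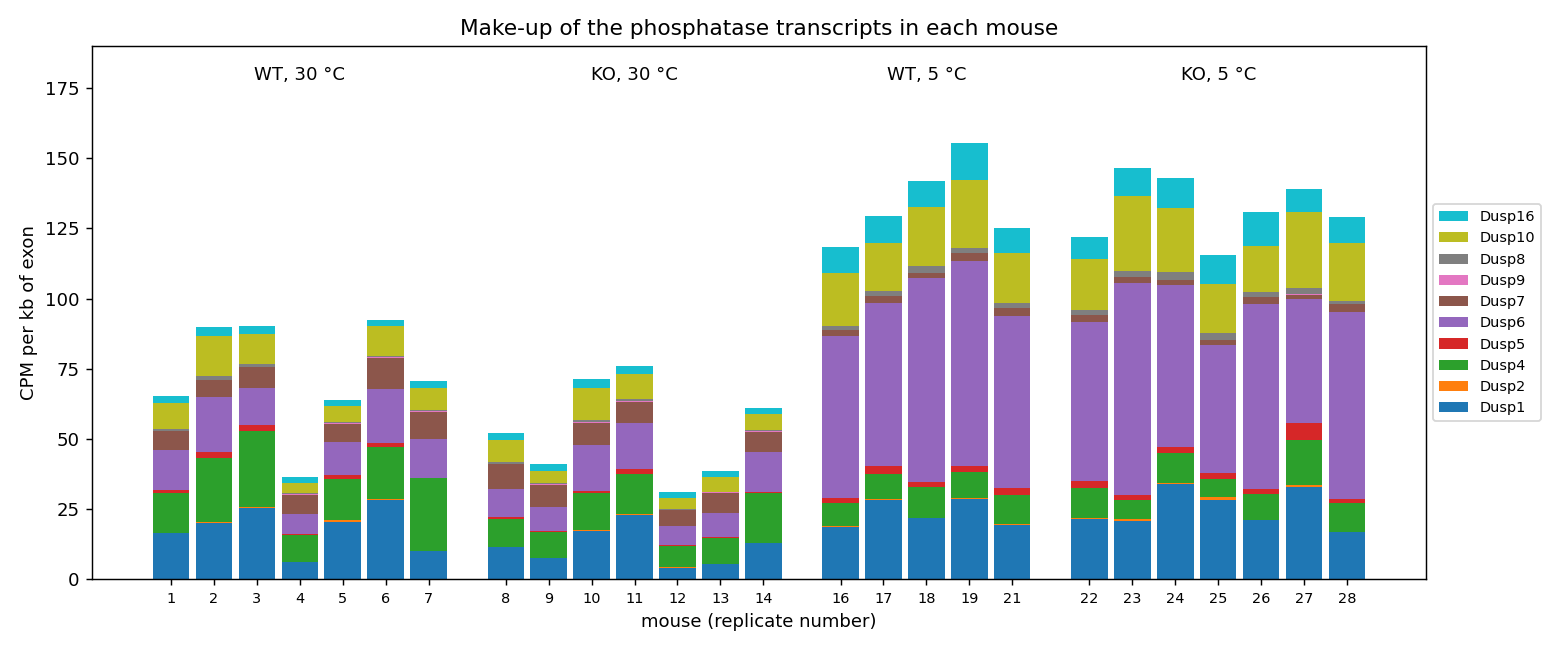
Summed CPM per kilobase of exon of the 10 genes in each mouse, stacked by gene and grouped by genotype and temperature. The stacks are taller at 5 °C (115.5 to 155.3) than at 30 °C (31.0 to 92.4), and the purple Dusp6 segment is the largest in every cold mouse, at 45.1% or more of the stack in WT and 31.5% or more in KO.

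Within groups, some members varied together. Each mouse's log2 CPM was taken as its difference from the group mean, and the 36 pairs of tested members were correlated over the 26 mice, with p-values from 100000 permutations within groups and Benjamini-Hochberg adjustment over the 36 pairs. For Pearson's r, 14 pairs had an adjusted p below 0.05 and all 14 were positive. For Spearman's rho, 11 pairs did, all among those 14. Over all pairs r ran from -0.24 to 0.83, and 7 pairs were negative. The sign was not the same in every group, since 4 of the 14 pairs were negative in KO mice at 5 °C (n = 7) and 3 in WT mice at 5 °C (n = 5), against 0 in either group at 30 °C. Dusp1 with Dusp6 had r = 0.67 over all mice, with 0.77 in WT and 0.96 in KO at 30 °C and 0.34 in WT and -0.72 in KO at 5 °C. Over all 36 pairs, 18 were negative in KO mice at 5 °C, down to -0.97 for Dusp1 with Dusp7. The libraries of a pair share their depth and their mix of cells.

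Dusp1 and Dusp5 were the closest pair, with r = 0.83 and rho = 0.83 (permutation p = 1e-05, the smallest 100000 permutations give, and adjusted p = 0.00036 for r). The relation was 0.81 without the 2 mice farthest from the median of Dusp1 and 0.85 without WT mouse 7. By group, r was 0.93 in WT and 0.90 in KO at 30 °C (n = 7 each), and 0.70 in KO at 5 °C (n = 7), while it was 0.42 over the 5 WT mice at 5 °C, fewer than the 6 asked of a correlation here. Dusp8 followed Dusp10 (r = 0.79, rho = 0.78, adjusted permutation p = 0.00276 for r), and Dusp6 followed Dusp10 (r = 0.78, rho = 0.67, adjusted permutation p = 0.00276 for r). Without the 2 farthest mice these were 0.69 and 0.64, but in KO mice at 5 °C they were 0.18 and 0.04, so these relations rest on the other groups. Dusp2 and Dusp7 stood outside this pattern, with no pair past the threshold.

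**Figure D4:**
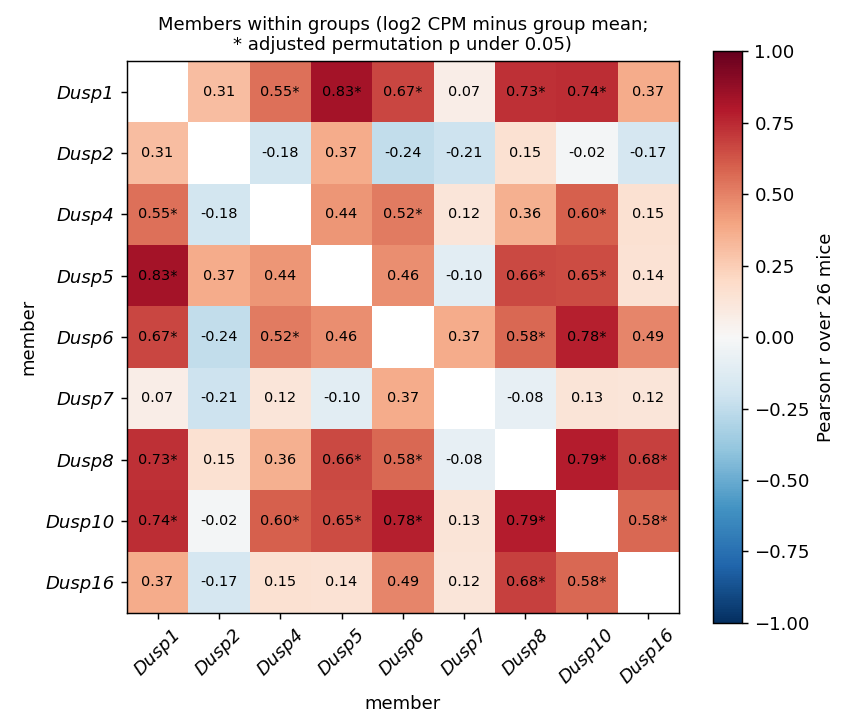
Pearson r between the 9 tested members over 26 mice, from log2 CPM minus the group mean, on a colour scale from -1 (blue) to 1 (red), with an asterisk where the adjusted permutation p was below 0.05. The rows of Dusp2 and Dusp7 hold no asterisk, and Dusp1 with Dusp5 has the highest value (0.83).

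By the same measure, the 3 tested genes most like each member were listed as a description. Dusp1 was closest to Gm45222 (r = 0.91), Egr3 (r = 0.91) and Apold1 (r = 0.90), of which Egr3 encodes an early-response transcription factor. Dusp5 was closest to Sertad1 (r = 0.94), Ccn1 (r = 0.92) and Apold1 (r = 0.91), and Dusp8 to Klf2 (r = 0.89), Klf4 (r = 0.87) and Ywhah (r = 0.83). Dusp6 was closest to Gripap1 (r = 0.90), Gm38357 (r = 0.89) and Ackr3 (r = 0.89), and Dusp10 to Ddx5 (r = 0.84), Slc25a25 (r = 0.84) and Gm38357 (r = 0.83). The likenesses were lower for Dusp4, to Rhob (r = 0.81), Pla2g15 (r = 0.77) and Becn1 (r = 0.77), and for Dusp7, to Gm12926 (r = 0.81), Ercc2 (r = 0.78) and Zfp574 (r = 0.78). For Dusp16 they were Slc52a3 (r = 0.85), Fam221b (r = 0.72) and Ubap1 (r = 0.70). Dusp2 was closest to Syk (r = 0.76), Vav3 (r = 0.74) and Clu (r = 0.74), of which Syk and Vav3 encode signalling proteins of leukocytes. These r values are the highest of 17286 genes in each case and carry no test.

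Other genes of the pathway were counted from fixed lists. For comparison with every list, cold raised 31.6% and lowered 33.4% of all genes tested in WT. In KO these shares were 33.7% and 34.9%. No list was tested against them. Of the 7 tested ERK feedback inhibitors (Sprouty and Spred genes and Errfi1), 5 rose and 0 fell in the cold in WT mice, and 5 rose and 0 fell in KO mice, with the largest WT rise in Spry4 at 1.73 (SE 0.24, adjusted p = 5.51e-07). Like Dusp6, Spry4 is a gene that ERK signalling switches on to limit itself. Of the 9 tested ERK-responsive transcription factor genes, 0 rose and 2 fell in WT, the larger fall being Egr3 at -3.18 (SE 0.87, adjusted p = 0.00232), and 2 rose and 1 fell in KO. Egr3 was scarce, with means of 1.78 CPM in WT at 30 °C and 0.19 CPM in WT at 5 °C. The median log2 fold changes of these lists in WT were 0.68 and -0.52, beside -0.01 over all genes tested. In KO they were 0.56 and 0.07, beside -0.03.

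Among the 9 tested MAP kinase genes, which include the substrates of the family, 3 rose and 5 fell in WT and 3 rose and 6 fell in KO. Mapk6, which encodes the atypical kinase ERK3, rose the most (1.05, SE 0.15, adjusted p = 6.99e-07) and Mapk9, which encodes a JNK, fell the most (-0.89, SE 0.07, adjusted p = 3.71e-11) in WT. Of the 7 MAP2 kinase genes, which encode activators of MAP kinases, 4 rose and 2 fell in WT and 4 rose and 3 fell in KO. The WT extremes were both activators of p38, Map2k3 at 1.18 (SE 0.13, adjusted p = 6.03e-09) and Map2k6 at -3.52 (SE 0.34, adjusted p = 7.39e-10). Of the 15 RAF and MAP3 kinases, 5 rose and 6 fell in WT and 5 rose and 8 fell in KO, with Map3k6 at 1.11 (SE 0.17, adjusted p = 2.79e-06) and Map3k1 at -1.08 (SE 0.10, adjusted p = 5.41e-10) as the WT extremes. Braf was the one listed gene called for a difference of the cold responses, rising by 0.57 (SE 0.05) in WT and 0.29 (SE 0.05) in KO (adjusted p = 0.0423 for the difference).

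The atypical dual-specificity phosphatases, relatives that lack the kinase-binding domain of the family, moved mostly downward. Of 13 tested, 3 rose and 9 fell in WT and 3 rose and 7 fell in KO, with a median of -0.50 in WT beside 0.82 over the 9 tested family members. Over all genes tested, 33.4% fell in WT and 34.9% in KO. Dusp18 rose by 0.98 (SE 0.24, adjusted p = 0.000896) and Dusp14 fell by 2.27 (SE 0.42, adjusted p = 3.53e-05) on the log2 scale in WT mice. Of 5 tested phosphatases of other families that act on MAP kinases, 1 rose (Ppm1d, 0.33, SE 0.11, adjusted p = 0.0108) and 1 fell (Ppm1a, -0.17, SE 0.06, adjusted p = 0.0245) in WT, and 3 rose and 0 fell in KO. In none of these 7 lists was a gene called between genotypes at either temperature.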

How the data were processed

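Gene counts from 26 BAT libraries (stranded total RNA, rRNA-depleted) were used, in groups read from the labels. Per the submitters' processing notes, alignment to mm10 was by STAR 2.5.2b and counting by featureCounts 1.5.2. The deposited values are raw read counts per gene. No column was left out. The strand setting and the alignment options are not given in the sources used here.

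Symbols, exon lengths and coordinates came from GENCODE M21 (GRCm38, the build of mm10). Of the 50686 IDs, 45737 matched with their version, 4639 without it and 310 not at all. Genes passing filterByExpr (17286) were fitted in R 4.3.3 with edgeR 4.0.16 (TMM factors, 1 term per group, legacy quasi-likelihood test, Benjamini-Hochberg adjustment over all tested genes, threshold 0.05), the method stated in the study with its edgeR 3.22.0. Adjusted p-values are from this test. The interaction is the difference of the cold responses. CPM used the TMM factors, log2 CPM a prior count of 2, and SE is the log2 fold change over the root of the F statistic. Exact tests were two-sided. All 73 pairs of mice within groups differed by more than sampling noise (lowest chi-square per gene 4.83). The steps were tested on simulated data.

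The members and the gene lists were chosen with earlier results of these data known. Named genes are the 10 members, Afdn, in each pathway list the called genes with the largest rise and fall for cold in WT mice and any gene called between genotypes or for the interaction, and the 3 genes most like each member. Alternatives were DESeq2 1.42.0 (Wald test), library size alone, upper-quartile factors, the revised quasi-likelihood method of edgeR, no filter, a minimum of 10 counts in all mice, only the groups compared, a skeletal muscle score as a covariate, and each mouse left out in turn.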

Additional observations from a re-analysis of the deposited data

Results flagged for a closer look

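In a screen of 44 sets of values (each member's CPM and the mitochondrial percent in each group) for a single mouse far from the rest, 3 stood out, and chance alone marks about 1 in 20 such sets. Dusp5 was at 15.18 CPM in KO mouse 27 at 5 °C, while the next mouse of that group was at 6.29 CPM and the lowest at 3.35 CPM. The same mouse had the highest summed neutrophil markers, 44.4 CPM, and its part in the Dusp5 value was not tested. Dusp16 was at 101.8 CPM in WT mouse 19 at 5 °C, with the others between 67.4 and 75.5 CPM. Without that mouse the cold rise of Dusp16 in WT was 1.90 (SE 0.13, adjusted p = 3.53e-12). Mitochondrial transcripts took 14.256% of the counts in WT mouse 7 at 30 °C, against 33.9% to 40.5% in the other 6 mice of its group. That mouse also had the highest skeletal muscle (5354 CPM) and fibroblast (3466 CPM) marker sums at 30 °C. Without it, cold in WT gave 2.17 for Dusp6, 2.00 for Dusp16, 1.45 for Dusp8, 1.10 for Dusp10, -1.73 for Dusp7 and -0.93 for Dusp4, all still past the threshold.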

How the results depend on the processing

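Cold in WT called 6 members, 6 to 7 under the other settings and 6 to 7 with 1 mouse left out, and cold in KO called 8, 6 to 9 and 8. No member was called between genotypes or for the interaction under any setting. Of the cold values, 137 of 138 under other settings and all 234 with 1 mouse left out kept their direction and side of the threshold, the exception being Dusp5 in WT with the muscle score, a setting chosen after seeing the data (1.12, adjusted p = 0.0276). Without the filter Dusp9 was called in both genotypes (-3.47 and -2.08). At least 10 counts in every mouse removed Dusp2 and Dusp5 as well from the test.

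Signs turned only for values that were not called, all 0.30 or less in size. For KO versus WT at 30 °C, Dusp7 became 0.0606 with library size alone, and Dusp16 became 0.13 with library size alone, 0.0264 with upper-quartile factors, 0.0088 with no filter, 0.0050 with at least 10 counts and 0.0111 with only the groups compared. The interaction of Dusp7 became -0.15 with library size alone, -0.0405 with upper-quartile factors and -0.0087 with at least 10 counts. With 1 mouse left out, KO versus WT at 30 °C ran from -0.36 to 0.14 for Dusp2, -0.11 to 0.0454 for Dusp7 and -0.0829 to 0.0652 for Dusp16. At 5 °C it ran from -0.0898 to 0.15 for Dusp4, -0.0817 to 0.41 for Dusp5, -0.17 to 0.0223 for Dusp7 and -0.0893 to 0.0782 for Dusp16. The interaction ran from -0.11 to 0.0862 for Dusp7 and -0.10 to 0.0840 for Dusp16. The cause was not tested.

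Library size alone moved the median of all genes from -0.01 to -0.14 for cold in WT, from -0.03 to -0.34 for cold in KO, from -0.02 to 0.13 for KO versus WT at 30 °C and from 0.04 to -0.15 for the interaction. Upper-quartile factors gave -0.12 and -0.18 for cold. The split of all genes called in the cold (5454 higher and 5779 lower in WT, 5825 and 6035 in KO) became 4165 and 6243, and 3223 and 8384, with library size alone. With upper-quartile factors the KO split was 4694 and 7369. Between genotypes, 10 higher and 4 lower at 30 °C became 34 and 0 with library size alone and 13 and 1 with upper-quartile factors, 8 and 16 at 5 °C became 4 and 1, and 7 and 24, and 50 and 150 for the interaction became 0 and 278, and 27 and 246.

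Counts over all genes were less stable between genotypes. At 30 °C, 14 genes became 48 with DESeq2, 34 with library size alone, 9 with no filter and 7 to 93 with 1 mouse left out. At 5 °C, 24 became 197, 5 and 15 in the same order, 45 with at least 10 counts, 9 with only the groups compared and 7 to 100 with 1 mouse left out. For the interaction, 200 became 488 with DESeq2, 27 with no filter and 49 to 371 with 1 mouse left out.

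No paired analysis was possible because each mouse has its own number and no number is shared between groups. Depth limits Dusp2 and Dusp9, which had at most 35 and 14 counts in a mouse.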
